A study of Felis catus with 25 samples.

Results

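Corneal fibroblasts of the domestic cat that had been driven towards myofibroblasts and then given troglitazone together with GW9662 were compared with the untreated fibroblasts from which the culture began. The comparison takes 5 libraries of each group by their labels, 10 of the 25 libraries of the series. Untreated fibroblasts (FB) were plated on dishes coated with collagen, made quiescent and taken at day 0. The treated cells (TrogGW) received transforming growth factor beta 1 (TGFb1) at 1 ng/ml for 2 days. TGFb1 was then taken away, and the cells had troglitazone at 7.5 uM and GW9662 at 10 uM for 3 days, until day 5. A pair of further groups give reference levels and direct tests where stated: TGFb, taken at day 2 after TGFb1, and Trog, which had the same days with troglitazone alone. By their labels the 5 libraries of each group are biological replicates, with no cat, culture or passage named, so p-values measure the spread between these libraries. None of the 25 libraries is of cells kept to day 5 without a drug, or of cells given GW9662 alone. The days in culture, TGFb1, its removal and the drugs therefore cannot be told apart in the difference between TrogGW and FB.

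Fibroblasts of the corneal stroma descend from keratocytes, the quiet cells that keep the cornea clear, and TGFb1 turns them into myofibroblasts with actin stress fibres and a dense collagen matrix that scatters light. Troglitazone is a thiazolidinedione that activates PPAR-gamma, a nuclear receptor that partners with RXR and switches on genes of fatty acid uptake and storage, and thiazolidinediones also bind the mitochondrial pyruvate carrier. GW9662 occupies the ligand pocket of PPAR-gamma and blocks its activation by agonists.

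Total counts were 17.5 to 24.2 M in FB and 17.6 to 20.9 M in TrogGW. At these similar depths, 11284 to 11450 genes had a count in FB and 11996 to 12112 in TrogGW, and the 10 genes with most counts took 15.3% ± 0.603 of a library in FB and 8.56% ± 0.452 in TrogGW (SD, n = 5). TrogGW replicate 1 lay nearest to the FB mean for 39.78% of the 3723 genes that changed at least 2-fold, against 10.8 to 21.09% for each of the other 4 TrogGW libraries. Of 11 fibroblast markers in the files, 10 were tested, 8 fell and 1 rose, and their summed level was 100130.0 to 117210.0 CPM (the read count scaled to library size) in FB and 8083 to 20751 in TrogGW. That sum was carried by the matrix genes COL1A1, COL1A2 and FN1 (means of 49667, 35013 and 25240 CPM in FB), whose falls are given below, while the marker PDGFRB was not called. THY1, the marker not tested, was near 0 in both groups (means 0.522 and 0.376 CPM). Corneal epithelial markers summed to 15.3 to 17.7 CPM in FB and 254 to 289 in TrogGW, where 3 of 4 tested members rose. That sum was carried by the desmosome gene PKP1, while the defining keratins KRT3 and KRT12, and TP63 and CLDN4, had no count in either group. Of 12 immune markers, the 3 that were tested rose (sums of 12.3 to 15.2 and 28.1 to 32.9 CPM), and PTPRC, TYROBP, AIF1, CD163 and MS4A1 had no count. Corneal endothelial markers summed to 3361 to 3712 CPM in FB and 2072 to 2221 in TrogGW, with 7 of 11 tested lower and ZP4 without a count. Vascular markers rose in 4 of 7 tested, among them KDR and PECAM1 (0.262 to 2.24 CPM), and fell in 3, among them FLT1 (140.5 to 36.5 CPM). Their summed level was 221 to 247 CPM in FB and 149 to 175 in TrogGW. CDH5 and CLDN5 were below 1 CPM in both groups. Both tested melanocyte and Schwann markers, NGFR and MITF, rose, and the list summed to at most 9.86 CPM in FB and to 17.4 to 19.8 CPM in TrogGW, while TYR, TYRP1 and DCT had no count. In these and all later lists, a gene near 0 in 1 group passed the filter on low counts only through the other. NGFR (0.252 ± 0.111 CPM in FB) and PECAM1 were tested in this way, so their rise was fixed by their being tested. What part cells of other types had in the results below was not tested.

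After TGFb1 and both drugs, most genes stood at another level than in the fibroblasts from which the culture began. Most tested genes of the lists for actin filaments, collagen and its crosslinking, cell division, cholesterol synthesis, ribosomal proteins and the respiratory chain were lower than in FB. More genes rose than fell among PPAR-gamma targets (13 and 5 of 19), cell cycle inhibitors and p53 targets (20 and 8 of 29), cytokines (20 and 10 of 34) and interferon-induced genes (18 and 10 of 31). Rises exceeded falls by less among immediate-early, endoplasmic reticulum, neuronal, lysosomal, Wnt, growth factor, TGF-beta and matrix protease genes. Of 10425 genes tested, 8950 (85.9%) differed at a Benjamini-Hochberg adjusted p under 0.05 with edgeR, 4564 (43.8%) higher in TrogGW and 4386 (42.1%) lower. At least a 2-fold difference was seen in 3723 (35.7%), of which 2043 (19.6%) were higher and 1680 (16.1%) lower. Every TrogGW library lay above every FB library for 4018 genes (38.5%) and below for 3965 (38%). With so many genes called, the counts below are read against these shares, and the size of a change says more than its call. "Rose" and "fell" below mean an adjusted p under 0.05 in TrogGW against FB. Log2 fold changes are TrogGW minus FB, given in parentheses after a gene with the standard error (SE) and adjusted p where these are printed, and levels as mean ± SD over 5 libraries. The median log2 fold change over all tested genes was 0.03, with the 5th and 95th percentiles at -2.04 and 2.73. CPM are not corrected for gene length, so levels are compared within a gene. The split between higher and lower depends on how libraries are scaled: with library totals alone in place of TMM factors the median moved by 0.48 and 71.77% of called genes were higher, against 50.99%. Under that scaling ACLY, AXIN2, BUB3, ESPL1, FASN, FOS, MCM7, MMP2, NCAPD2, PDGFRB, SLC7A5, SMAD7 and TFEB, given below as not called, were called higher.

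**Figure D1:**
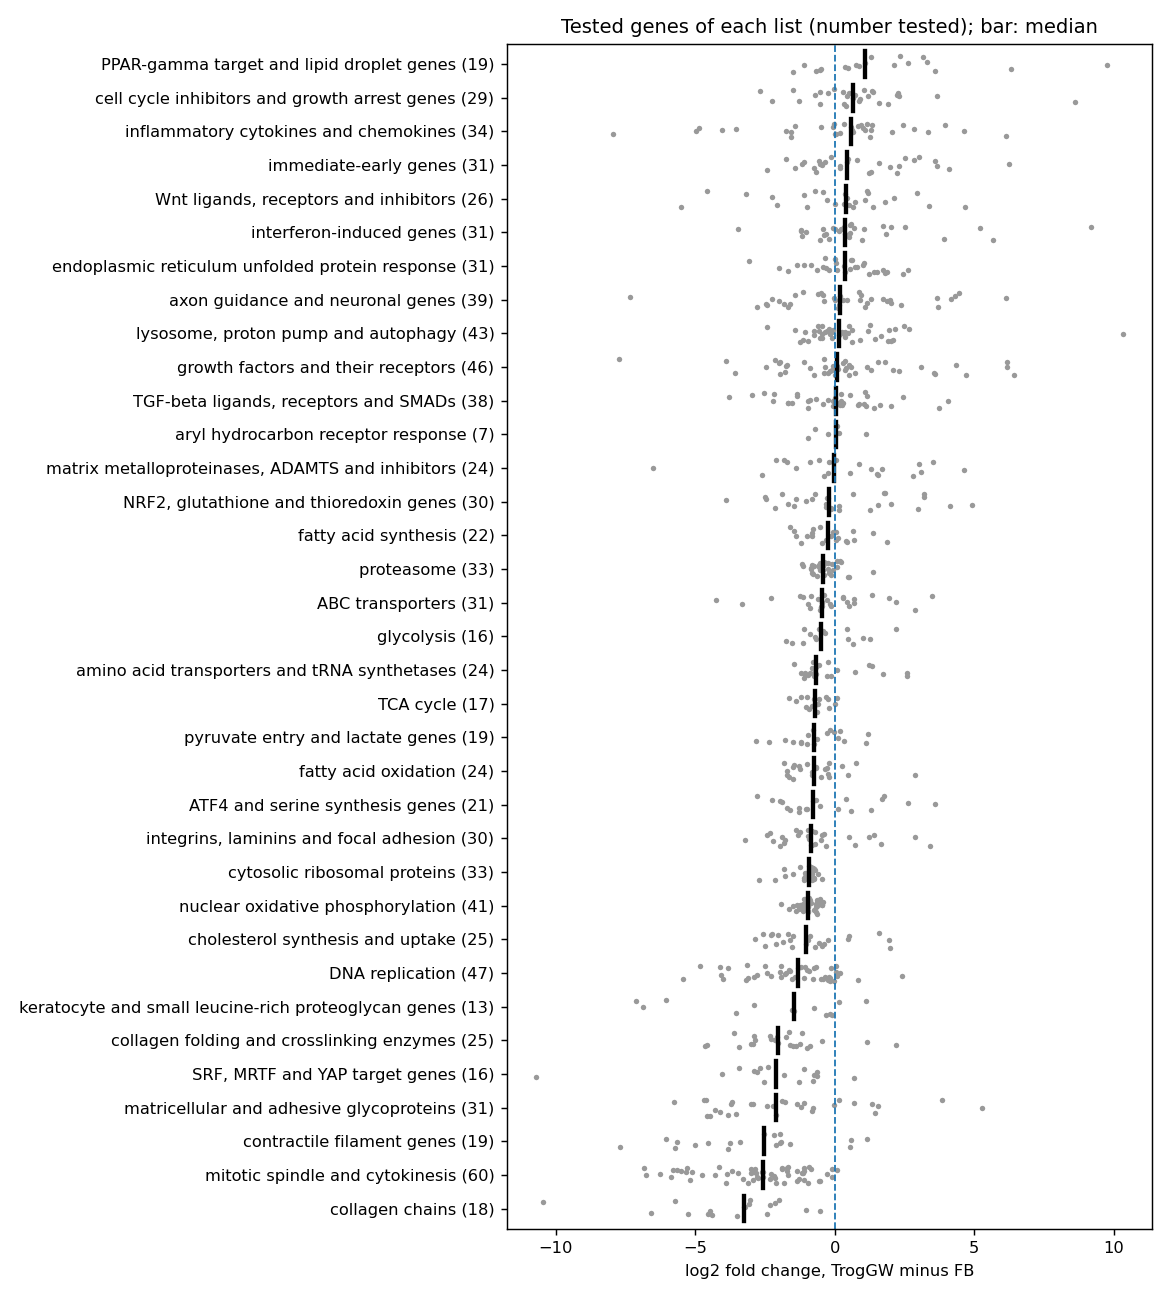
Log2 fold change of every tested gene in 35 gene lists, TrogGW minus FB (x axis); each grey point is a gene, the dark bar is the list's median, and the dashed line is the median over all 10425 tested genes. The lists are ordered by median, from collagen chains at -3.24 to PPAR-gamma target genes at 1.09. The list labelled cell cycle inhibitors and growth arrest genes is the joint list of cell cycle inhibitors and p53 target genes.

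The contractile apparatus of the myofibroblast was far below its level in the untreated fibroblasts. Of 19 tested contractile genes 16 fell, 16 of them at least 2-fold, and the list's median log2 fold change was -2.52. ACTA2, the smooth muscle actin that defines myofibroblasts, had 2393, 2045, 2371, 2110.0 and 2128 CPM in the 5 FB libraries and 33.6, 6.65, 1.99, 2.48 and 8.73 CPM in the 5 TrogGW libraries. Every TrogGW library was below every FB library, and TrogGW replicate 1 was the highest of its group. The log2 fold change was -7.69, SE 0.58, adjusted p = 2.54e-09, -8.82 without TrogGW replicate 1 and -8.47 with limma voom. ACTA2 stood at 10540.0 ± 471 CPM after TGFb1 and at 308 ± 84.7 CPM with troglitazone alone, so that TrogGW was the lowest of these 4 groups, and lower than Trog by the direct test (log2 fold change -4.85, SE 0.53, adjusted p = 1.13e-06, and -5.97 without TrogGW replicate 1). Reads of ACTA2 and of its close copies ACTG2 and ACTC1 may be split by the counting. ACTC1 fell from 490.5 ± 20.6 to 9.68 ± 7.75 CPM (-5.66, and -6.30 without TrogGW replicate 1) and ACTG2 from 6.81 ± 0.807 to 0.0956 ± 0.0785. LMOD1, which nucleates actin filaments in smooth muscle, fell by the same order (-5.72, SE 0.18, adjusted p = 5.93e-14), as did the myosin light chain MYL9 (-5.02, SE 0.27, adjusted p = 2.56e-11) and the tropomyosin TPM1 (-4.54, SE 0.16, adjusted p = 1.76e-13). CNN1, the smooth muscle calponin, went from 147, 147, 160.4, 153 and 153 CPM in FB to 11.6, 9.65, 11.7, 10.3 and 10.7 CPM in TrogGW (-3.82, SE 0.06, adjusted p = 4.29e-17). MYH11, the smooth muscle myosin heavy chain, was an exception and rose (0.53, SE 0.06, adjusted p = 1.42e-07), as did the intermediate filament gene DES at levels of 0.488 to 1.69 CPM in FB and 1.69 to 2.89 in TrogGW. In 14 of the 19 contractile genes TrogGW had the lowest mean of FB, TGFb, Trog and TrogGW (73.7%), against 28.3% of all tested genes.

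Genes driven by serum response factor and by the YAP and TAZ coactivators, which answer to actin tension, were lower in 15 of 16, 11 at least 2-fold (median -2.10). ANKRD1, a nuclear protein of stretched muscle and a common YAP readout, had 261, 318, 271, 290.3 and 281 CPM in FB and 0, 0.379, 0.181, 0.0394 and 0.241 CPM in TrogGW. No TrogGW library reached 1 CPM, and the log2 fold change was the most negative of all tested genes (-10.69, SE 0.18, adjusted p = 6.68e-17). The matricellular growth regulators CCN1 and CCN2 fell from 2432 ± 117 to 378 ± 118 CPM (-2.69) and from 5779 ± 302 to 987 ± 291 CPM (-2.55). FHL1, a LIM protein of muscle, fell with the lowest p of the list (-4.04, SE 0.06, adjusted p = 2.61e-17). Its relative FHL2 fell from 148 ± 3.42 to 42.4 ± 3.53 CPM (-1.80), and AXL, a receptor tyrosine kinase, fell as well (-2.39). SRF itself and its coactivator MRTFA fell by less than 2-fold (-0.62 and -0.63), and with library totals alone SRF was not called (-0.15). CRYAB, a small heat shock protein, was the member that rose (0.69, SE 0.08, adjusted p = 3.19e-07).

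All 18 tested collagen chains fell, 17 of them at least 2-fold, with a median log2 fold change of -3.24. COL1A1, the alpha 1 chain of type I collagen, had 52216, 41377, 55404, 46568 and 52770.0 CPM in FB and 1529, 775, 669, 668 and 998 CPM in TrogGW. The groups lay 27.1-fold apart at their nearest libraries, replicate 1 was again the highest TrogGW library, and the difference was -5.74, SE 0.24, adjusted p = 1.33e-12. COL1A2, the partner chain, fell from 35013 ± 1599 to 368 ± 332 CPM (-6.57, SE 0.48, adjusted p = 1.69e-09, and -7.29 without TrogGW replicate 1). COL3A1, the type III chain, went from 332, 299, 327, 317 and 305 CPM to 0.525, 0.211, 0, 0.0394 and 0.338 CPM, a log2 fold change of -10.46, SE 0.19, adjusted p = 1.44e-16 (-11.06 without TrogGW replicate 1 and -11.12 with limma voom). The type V chain COL5A1, which sets the width of corneal fibrils, fell from 5481 ± 423 to 248 ± 84.4 CPM. COL14A1 and COL15A1, which sit on fibrils and at basement membranes, had the lowest p of the chains after COL3A1 (-4.55, SE 0.11, adjusted p = 3.85e-15 and -5.25, SE 0.18, adjusted p = 1.48e-13). The smallest of the 2-fold falls was that of COL12A1, a chain at the fibril surface (-1.04, SE 0.14, adjusted p = 2.72e-06). Troglitazone alone had left COL1A1 at 1287 ± 309 CPM, and the direct test did not call TrogGW different from it (log2 fold change -0.47, SE 0.21, adjusted p = 0.0621, 95% confidence interval -0.92 to -0.01), although it was lower without Trog replicate 1 (-0.58) or without TrogGW replicate 1 (-0.72). COL1A2, by contrast, was lower in TrogGW than in Trog (-2.03, SE 0.42, adjusted p = 5.00e-04, and -2.74 without TrogGW replicate 1).

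Enzymes that fold, cut and crosslink collagen fell in 23 of 25, 21 at least 2-fold (median -2.02). LOX, lysyl oxidase, which makes the crosslinks, had 4267, 4173, 4396, 4720.4 and 4146 CPM in FB and 335, 142, 97.6, 90.3 and 209 CPM in TrogGW. The highest TrogGW library was 12.4-fold below the lowest FB library, and the difference was -4.63, SE 0.31, adjusted p = 4.03e-10. Its relatives LOXL1, LOXL2 and LOXL4 had log2 fold changes of -4.56, -3.01 and -2.93, the 3 lowest p values of the list being those of LOXL1 (2.51e-16), LOXL4 (1.44e-15) and TGM2, a transglutaminase (1.62e-14). SERPINH1, the collagen chaperone HSP47, fell from 2899 ± 111 to 238 ± 53.5 CPM. The prolyl hydroxylases P4HA1, P4HA2, P4HA3 and P4HB fell by less (-1.39, -1.74, -1.18 and -1.59). The members that rose were ADAMTS3, a procollagen peptidase, from 4.22 ± 0.518 to 19.7 ± 1.85 CPM (2.21, SE 0.10, adjusted p = 4.24e-12) and PCOLCE2, an enhancer of procollagen processing, from 5.98 ± 0.517 to 13.3 ± 2.57 CPM (1.16, SE 0.13, adjusted p = 5.05e-07).

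**Figure D2:**
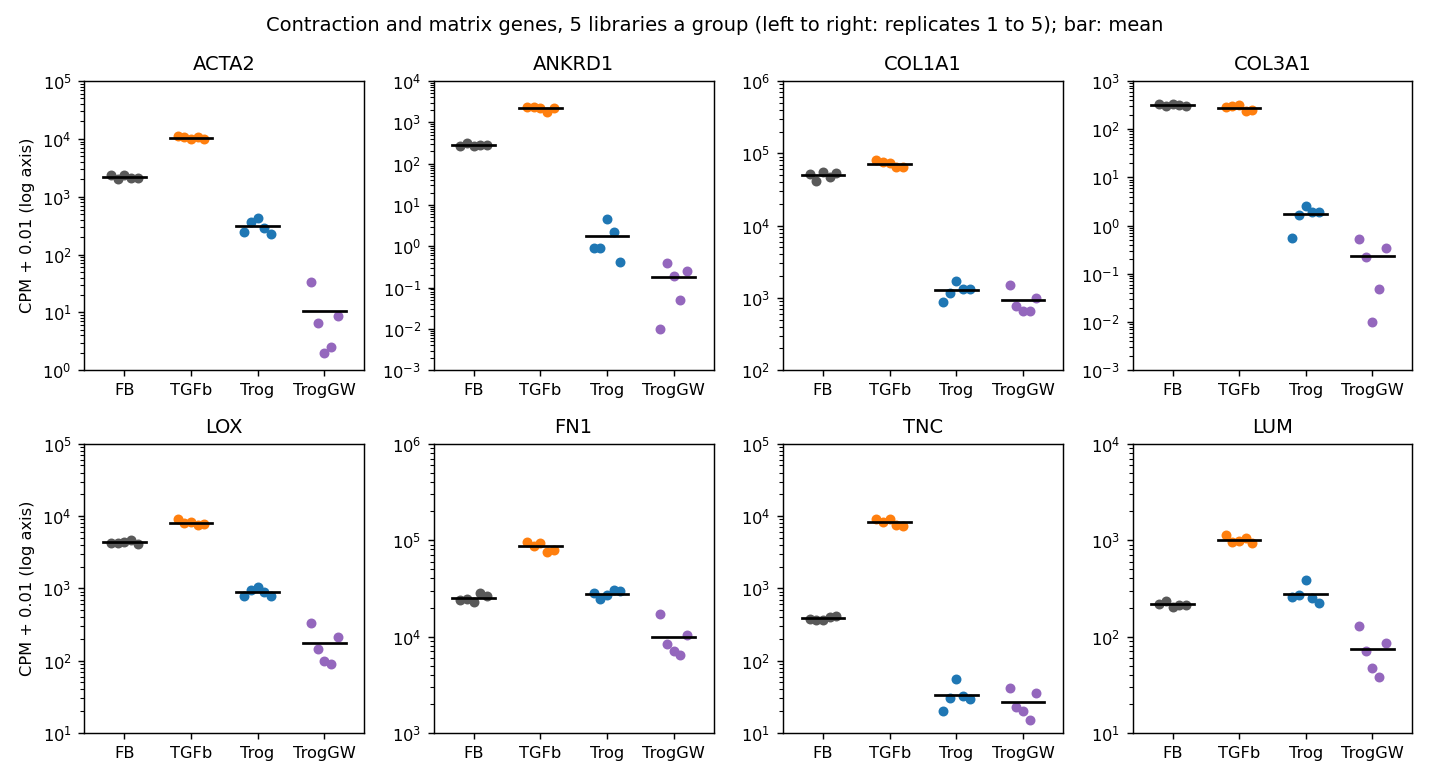
CPM of 8 genes of contraction and matrix in each library (points; log axis, with 0.01 CPM added) of FB, TGFb, Trog and TrogGW, 5 libraries a group, with the group mean as a bar. ACTA2, ANKRD1, COL1A1, COL3A1 and LOX are lower in every TrogGW library than in every FB library, while FN1 in TrogGW replicate 1 comes closer to FB than in the other TrogGW libraries.

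Glycoproteins of the matrix fell in 23 of 31 and rose in 6 (median -2.11). FN1, fibronectin, had 24150.0, 24236, 22853, 28401 and 26560.0 CPM in FB and 17102, 8426, 7002, 6415 and 10412 CPM in TrogGW. The groups did not overlap, but TrogGW replicate 1 stood apart from its group, and the fall was -1.35, SE 0.21, adjusted p = 1.61e-05. SPARC, a collagen-binding protein of remodelling matrix, fell from 13013 ± 445 to 588 ± 229 CPM (-4.47), and the scar proteins TNC and POSTN fell from 384 ± 22.7 to 27.1 ± 11.1 and from 618 ± 41.2 to 35.5 ± 21.5 CPM. TNC and POSTN had been 8244 ± 898 and 3264 ± 228 CPM in TGFb. FBLN5 and EFEMP2, elastic fibre proteins, and VCAN, a large proteoglycan, fell (-2.94, SE 0.06, adjusted p = 6.59e-16, -3.70, SE 0.12, adjusted p = 7.43e-14 and -3.70, SE 0.13, adjusted p = 1.68e-13). ELN, elastin, fell by -5.76 on the log2 scale. A few members were above FB although below TGFb. CILP, a cartilage matrix protein, rose from 0.264 ± 0.180 CPM in FB to 10.3 ± 0.797 CPM (5.30, SE 0.22, adjusted p = 1.25e-12) and had been 70.9 ± 6.98 in TGFb. LTBP2, a microfibril protein of the latent TGF-beta binding family, rose from 29.0 ± 1.61 to 73.2 ± 13.4 CPM (1.33, SE 0.10, adjusted p = 2.24e-09) and had been 976 ± 134. 

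In a joint list of keratocyte genes and small leucine-rich proteoglycans of the stroma, 9 of 13 tested genes were lower and 1 was higher. The keratocyte genes KERA, CHST6, PTGDS and AQP1 were not among the counted symbols, and CD34 was not tested. Most falls named here are of proteoglycans, so they do not measure the keratocyte state. PRELP, OMD and ECM2 were higher in TGFb than in FB (means of 1131, 28.2 and 42.2 CPM in TGFb). LUM and DCN, the fibril-spacing proteoglycans lumican and decorin, fell from 215 ± 10.7 to 73.9 ± 35.4 and from 418 ± 16.9 to 249 ± 38.2 CPM (-1.55, SE 0.23, adjusted p = 7.45e-06 and -0.75, SE 0.09, adjusted p = 4.27e-07). OMD, osteomodulin, and ASPN, asporin, nearly vanished, from 8.07 ± 0.956 to 0.0525 ± 0.117 and from 12.9 ± 2.01 to 0.108 ± 0.116 CPM. The log2 fold changes were -6.87 for ASPN and -7.11 for OMD, the latter -10.32 without TrogGW replicate 1 and -7.79 with limma voom. PRELP, a proteoglycan that anchors basement membranes, and ECM2 fell as well (-2.89, SE 0.12, adjusted p = 1.08e-12 and -3.54, SE 0.17, adjusted p = 6.23e-12). The keratocyte crystallin ALDH1A1 had 1.41 ± 0.314 CPM in FB and 1.31 ± 0.285 in TrogGW and was not called (-0.11, SE 0.21, adjusted p = 0.630). ALDH3A1, the crystallin of the corneal surface, rose at levels of 0.688 to 1.16 CPM in FB and 1.68 to 2.01 in TrogGW (1.12, SE 0.19, adjusted p = 3.49e-05). Keratan sulphate synthesis was represented by B3GNT7 alone, at means of 0.0375 and 0.273 CPM.

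Matrix proteases and their inhibitors were split, 11 of 24 tested genes higher and 10 lower (median -0.02). ADAMTS1, a protease of versican and aggrecan, had 18.6, 17.9, 18.6, 21.2 and 19.5 CPM in FB and 180.2, 236, 234, 232 and 222 CPM in TrogGW. The groups were far apart, at 3.52, SE 0.08, adjusted p = 1.48e-15. ADAMTS5, the aggrecanase, rose from 1.85 ± 0.246 to 46.6 ± 10.5 CPM (4.64, SE 0.18, adjusted p = 5.16e-13), TIMP1, a metalloproteinase inhibitor, from 775 ± 39.6 to 2497 ± 238 (1.69, SE 0.08, adjusted p = 3.98e-12) and MMP14, the membrane-type collagenase, from 386 ± 17.0 to 946 ± 72.1 (1.30, SE 0.06, adjusted p = 8.73e-12). ADAMTS15 fell the most, from 23.6 ± 2.75 to 0.254 ± 0.0947 CPM (-6.51, SE 0.17, adjusted p = 5.34e-15), and TIMP2 fell by -1.39. MMP2, gelatinase A, was 2102 ± 98.4 CPM in FB and 1814 ± 328 in TrogGW and was not called (-0.21, SE 0.11, adjusted p = 0.0747, 95% confidence interval -0.44 to 0.02), but it was called without TrogGW replicate 1 (-0.29).

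Receptors of the matrix followed the matrix in part. Of 30 integrin, laminin and focal adhesion genes 23 fell, 11 at least 2-fold, and 7 rose (median -0.84). ILK, the integrin-linked kinase, fell from 328 ± 10.8 to 87.8 ± 4.84 CPM (-1.90, SE 0.05, adjusted p = 9.06e-15), the laminin receptor chains ITGA3 and ITGA6 fell by -1.80 and -2.22, and ITGA8 fell by -2.33. ITGA2, a collagen-binding chain, rose from 7.82, 8.43, 8.10, 9.23 and 7.19 CPM in FB to 62.7, 101, 122, 72.8 and 76.8 CPM in TrogGW. The nearest libraries of the groups were 6.79-fold apart (3.41, SE 0.17, adjusted p = 9.05e-12). ITGAV, the chain of the receptors that release latent TGF-beta, rose from 203 ± 19.5 to 477 ± 48.0 CPM (1.23, SE 0.08, adjusted p = 1.77e-10).

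The TGF-beta and BMP family moved in both directions, 18 of 38 higher and 16 lower, with 10 and 10 at least 2-fold, about the shares of all genes. Among ligands, TGFB1 rose from 56.0, 50.2, 53.6, 47.1 and 57.1 CPM in FB to 156, 160.3, 180.3, 141 and 168 CPM in TrogGW, without overlap (1.61, SE 0.07, adjusted p = 1.99e-12). TGFB2 and TGFB3 fell from 184 ± 14.4 to 32 ± 2.44 and from 70.8 ± 6.24 to 22.0 ± 1.49 CPM (-2.53, SE 0.07, adjusted p = 7.57e-15 and -1.68, SE 0.07, adjusted p = 1.12e-12), so that the isoforms of 1 ligand went opposite ways. The growth factor BMP2 rose from 1.11 ± 0.279 to 18.7 ± 5.14 CPM (4.07). Among receptors, TGFBR2, which binds the ligand, fell (-0.96, SE 0.05, adjusted p = 1.75e-11), and BMPR1B, a BMP receptor, rose from 1.04 ± 0.252 to 13.8 ± 1.94 CPM (3.73, SE 0.16, adjusted p = 2.19e-12). FST, an extracellular activin trap, fell (-3.80, SE 0.16, adjusted p = 1.93e-12). The inhibitory SMAD7 was 28.2 ± 2.32 CPM in FB and 29.1 ± 1.90 in TrogGW and was not called (0.05, SE 0.07, adjusted p = 0.522). Its mean in TGFb, taken after TGFb1, was no higher than in FB (23.997 ± 1.927 CPM). SMAD7 was therefore not taken as a measure of TGF-beta signalling in these cells. The BMP target genes ID1 and ID3 fell (-2.19 and -1.35), and ID2 and ID4 rose (2.44 and 1.12).

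Wnt genes were split likewise, with 13 of 26 higher and 10 lower. DKK2, a secreted Wnt modulator, fell from 1313, 1196, 1291, 1350.3 and 1305 CPM in FB to 47.5, 60.4, 55.9, 46.6 and 57.4 CPM in TrogGW. The nearest libraries were 19.8-fold apart (-4.59, SE 0.08, adjusted p = 2.09e-16). WNT2 fell from 9.84 ± 1.23 to 0.209 ± 0.133 CPM (-5.52, SE 0.22, adjusted p = 8.99e-13) and LGR4, the R-spondin receptor, by -2.07. TCF7, a transcription factor at the end of the pathway, rose from 7.04 ± 0.840 to 54.6 ± 9.04 CPM (2.95, SE 0.12, adjusted p = 7.93e-13), APCDD1, a membrane inhibitor, from 1.25 ± 0.265 to 13.0 ± 1.41 (3.36, SE 0.14, adjusted p = 1.43e-12), and LRP6, a coreceptor, by 1.17. AXIN2, the usual readout of canonical Wnt signalling, was 1.43 ± 0.164 and 1.82 ± 0.530 CPM and was not called (0.34, SE 0.21, adjusted p = 0.138).

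Genes of cell division were low in TrogGW although FB had itself been taken after quiescence. Of 60 genes of the mitotic spindle and cytokinesis, 57 fell, 51 at least 2-fold, and none rose (median -2.56). CCNA2, cyclin A2, had 21.0, 30.5, 27.9, 27.5 and 26.9 CPM in FB and 0.35, 0.548, 0.181, 0.433 and 0.145 CPM in TrogGW. All TrogGW libraries were at least 38.4-fold below FB, and the difference was -6.28, SE 0.19, adjusted p = 2.79e-14. ANLN, which scaffolds the cleavage furrow, fell from 135 ± 16.3 to 10.5 ± 0.844 CPM (-3.68, SE 0.09, adjusted p = 2.68e-15), and MYBL2 and CDC20, a transcription factor and an activator of mitotic exit, fell too (-5.19, SE 0.12, adjusted p = 2.57e-15 and -5.65, SE 0.14, adjusted p = 6.01e-15). KIF23, a motor of the midbody, fell by -6.85. CDK1, the mitotic kinase, fell less, from 31.8 ± 4.51 to 14.8 ± 1.19 CPM (-1.10). Members of the list not called were BUB3, ESPL1 and NCAPD2, of which BUB3 was called lower without FB replicate 5 or TrogGW replicate 5 (-0.14 and -0.13). TGFb had been low already: in 25 of the 60 genes the TrogGW mean lay between those of FB and TGFb (41.7%, against 16% of all tested genes).

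Of 47 DNA replication genes 37 fell, 27 at least 2-fold, and 3 rose (median -1.32). TK1, the thymidine kinase of S phase, fell from 50.3, 59.9, 59.3, 54.7 and 59.4 CPM in FB to 1.71, 1.85, 1.59, 2.05 and 2.75 CPM in TrogGW, without overlap (-4.84, SE 0.11, adjusted p = 1.34e-15). The helicase subunit MCM5 and the ribonucleotide reductase subunit RRM2 followed (-4.01, SE 0.09, adjusted p = 1.89e-15 and -4.11, SE 0.11, adjusted p = 7.53e-15). MCM2, MCM3 and MCM4 fell by -1.96, -3.10 and -2.88. MCM7, of the same helicase ring, was 116 ± 7.56 CPM in FB and 105 ± 14.3 in TrogGW and was not called (-0.15, SE 0.08, adjusted p = 0.0850), although it was without TrogGW replicate 3 or 4 (-0.19 and -0.22). MCM6 fell by -1.59. Cyclin E2, which drives entry into S phase, went the other way: CCNE2 rose from 3.89 ± 0.433 to 20.7 ± 3.21 CPM (2.41, SE 0.12, adjusted p = 1.10e-11), and CCNE1 rose by 0.85. In a joint list of cell cycle inhibitors and target genes of the tumour suppressor p53, 20 of 29 tested genes rose, 11 at least 2-fold. The list also holds the cyclins CCND1 and CCND3, so this is not a count of growth arrest genes alone. The inhibitors CDKN1B, CDKN2A and CDKN2B were not among the counted symbols. CDKN1A, the kinase inhibitor p21, had 69.9, 55.5, 90.1, 70.1 and 73.7 CPM in FB and 315, 329, 398, 356 and 375 CPM in TrogGW. The lowest TrogGW library was 3.49-fold above the highest of FB (2.30, SE 0.10, adjusted p = 2.80e-12). CDKN1C, the inhibitor p57, rose from 0.110 ± 0.113 to 48.5 ± 17.2 CPM (8.62, SE 0.44, adjusted p = 1.78e-11, and 9.48 without FB replicate 4), and was 1.35 ± 0.333 CPM with troglitazone alone. CCNG2, a cyclin that restrains growth, rose (1.91, SE 0.07, adjusted p = 4.13e-13), as did the pocket protein RBL2 (1.34, SE 0.05, adjusted p = 6.67e-13). DDB2, a DNA repair protein, fell by -2.26.

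**Figure D3:**
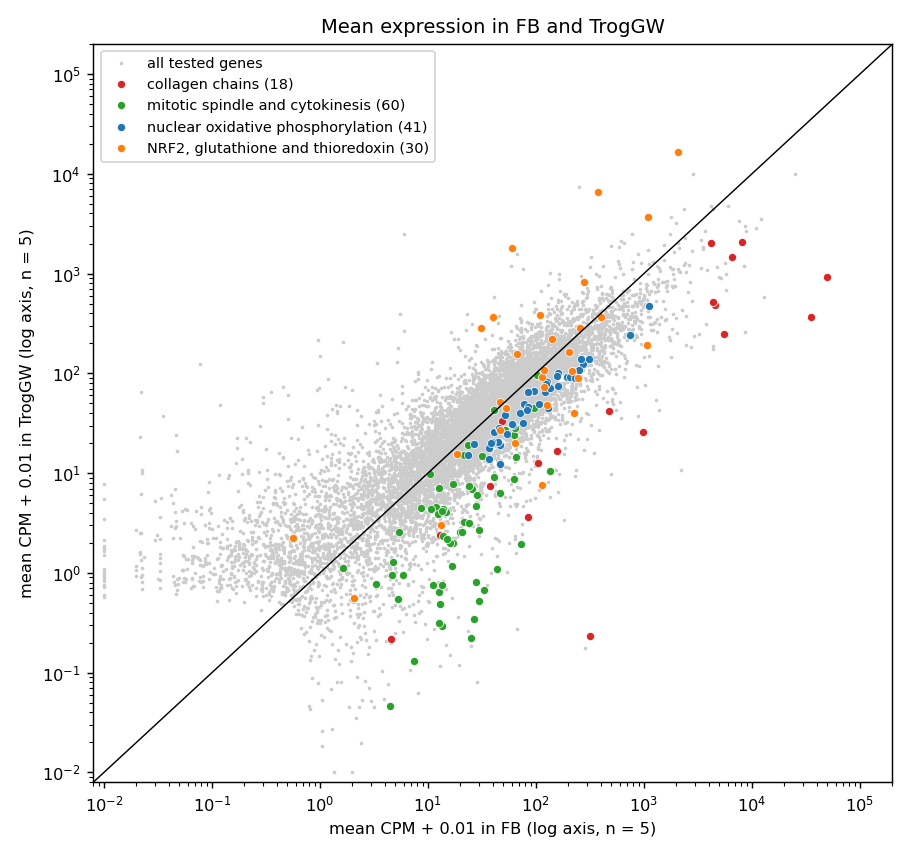
Mean CPM in FB (x axis) and TrogGW (y axis) of all tested genes (grey; both axes logarithmic, with 0.01 CPM added), with 4 lists marked; the diagonal is equal expression. Collagen chains and mitotic genes lie below the diagonal, respiratory chain genes form a band just below it, and genes of the NRF2 list lie on both sides.

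PPARG was barely expressed: 0.0680, 0, 0, 0.0976 and 0 CPM in the FB libraries and 0.262, 1.18, 0.453, 0.354 and 0.579 CPM in the TrogGW libraries, too low to be tested, with no count in TGFb or Trog. PPAR-gamma target and lipid droplet genes rose in 13 of 19, 10 at least 2-fold, and fell in 5, with the highest median of the lists (1.09). The list holds only members that passed the filter on low counts, and a gene absent from FB could pass only through TrogGW. FABP4, the fatty acid carrier of adipocytes and a standard PPAR-gamma target, had no count in FB and 5.25, 5.01, 7.53, 4.17 and 5.50 CPM in TrogGW. Against the floor of 3 counts over the FB libraries its level from the counts pooled over 5 libraries was at least 155-fold higher (adjusted p = 1.91e-09). With troglitazone alone it reached 53.1, 37.8, 44.4, 44.5 and 37.6 CPM, and the direct test put TrogGW below Trog (-2.99, SE 0.13, adjusted p = 1.18e-10). ANGPTL4, a lipase inhibitor, had 2.58, 1.84, 3.07, 2.39 and 3.00 CPM in FB and 16.7, 27.7, 29.6, 27.8 and 24.2 in TrogGW, without overlap (3.29, SE 0.17, adjusted p = 1.72e-11), and was 58.6 ± 11.3 in Trog (-1.21, SE 0.14, adjusted p = 2.41e-06 for TrogGW minus Trog). PDK4, the kinase that shuts pyruvate dehydrogenase, rose from 0.0494 ± 0.0279 to 4.24 ± 0.608 CPM (6.32, SE 0.31, adjusted p = 1.10e-11) and was not called different from Trog (4.57 ± 0.906 CPM; -0.10, SE 0.15, adjusted p = 0.564, 95% confidence interval -0.42 to 0.22). DGAT2, the last enzyme of triglyceride synthesis, rose from 4.60 ± 0.353 to 55.4 ± 4.09 CPM (3.59, SE 0.08, adjusted p = 1.13e-15), and FABP5 and ACSL1 rose too (2.62, SE 0.09, adjusted p = 2.22e-13 and 1.30, SE 0.05, adjusted p = 1.69e-13). PLIN2, the coat protein of lipid droplets, rose from 584 ± 15.6 to 1238 ± 114 CPM (1.09) and exceeded its level in Trog of 809.8 ± 36.2 (0.62, SE 0.07, adjusted p = 1.71e-06). LPL, lipoprotein lipase, fell (-1.50, SE 0.13, adjusted p = 1.52e-08), as did DGAT1 (-1.11, SE 0.08, adjusted p = 1.04e-09). The receptors PPARA and RXRA rose by 2.11 and 0.86. Of 4 tested adipocyte markers 3 rose, FABP4, LEP, the hormone leptin (0.226 ± 0.152 to 0.752 ± 0.240 CPM), and LIPE, a lipase of fat droplets (8.49 ± 1.15 to 10.6 ± 1.21 CPM), and none fell. FABP4 and LEP passed the filter only through TrogGW, so their rise adds nothing to this count. The list summed to 8.66 to 11.9 CPM in FB and 16.1 to 21.5 in TrogGW. ADIPOQ, adiponectin, and CIDEC had no count in FB and 0.00965 and 0.0257 CPM in TrogGW.

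The mitochondrial pyruvate carrier is formed by MPC1 and MPC2. MPC1 had 37.4, 39.0, 39.1, 35.9 and 35.4 CPM in FB and 23.5, 24.7, 24.7, 21.2 and 27.0 CPM in TrogGW, and MPC2 had 72.6, 75.7, 74.8, 70.3 and 71.9 and 36.0, 35.5, 37.4, 34.8 and 38.5. Both subunits were lower in every TrogGW library, by -0.63, SE 0.07, adjusted p = 1.69e-07 and -1.0, SE 0.05, adjusted p = 6.71e-12. Of 19 genes of pyruvate entry and lactate exchange, 13 fell, 7 at least 2-fold, and 4 rose (median -0.73). LDHA, lactate dehydrogenase A, fell from 8762, 8449, 8684, 8188 and 7860.1 CPM in FB to 1295, 1178, 1106, 1087 and 1241 CPM in TrogGW. The drop was several-fold in each library (-2.83, SE 0.08, adjusted p = 2.18e-14) and left TrogGW near Trog (1142 ± 43.0 CPM). ME3, a malic enzyme of mitochondria, fell with the lowest p of the list (-2.35, SE 0.06, adjusted p = 2.87e-15). The carboxylase PC and the pyruvate transporter SLC16A7 rose (1.19, SE 0.08, adjusted p = 5.47e-10 and 1.11, SE 0.06, adjusted p = 2.60e-11). The subunits of pyruvate dehydrogenase DLAT, PDHB and DLD fell (-1.20, -0.73 and -0.77).

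All 41 tested nuclear genes of oxidative phosphorylation fell, 19 at least 2-fold, within a narrow span from -1.93 to -0.40 and around a median of -0.95. ATP5F1A, the alpha subunit of ATP synthase, had 732, 752, 752, 743 and 768 CPM in FB and 222, 261, 246, 228 and 249 CPM in TrogGW. The groups did not overlap (-1.63, SE 0.06, adjusted p = 1.30e-13). UQCRC2 and UQCRC1 of complex III fell by -1.17 and -1.13 and the complex I subunits NDUFA6 and NDUFA9 by -1.27 and -0.88. TrogGW had the lowest mean of the 4 groups for 30 of the 41 (73.2%). Of 17 citric acid cycle genes 15 fell and none rose (median -0.71), with the lowest p for MDH2, malate dehydrogenase, IDH3A, an isocitrate dehydrogenase subunit, and CS, citrate synthase (-1.62, SE 0.05, adjusted p = 5.20e-14, -1.40, SE 0.05, adjusted p = 2.35e-13 and -1.19, SE 0.05, adjusted p = 1.69e-12). Fatty acid oxidation genes fell in 20 of 24 (median -0.74). CPT2 of the carnitine shuttle and the beta-oxidation enzymes ECI1 and HSD17B10 had the lowest p (-1.82, SE 0.05, adjusted p = 1.94e-14, -1.69, SE 0.06, adjusted p = 8.26e-14 and -1.63, SE 0.05, adjusted p = 8.13e-14). CPT1A, the rate-limiting entry enzyme and a PPAR target, rose from 139, 127, 130.2, 141 and 139 CPM in FB to 232, 215, 237, 229 and 224 CPM in TrogGW without overlap (0.75, SE 0.05, adjusted p = 2.65e-10). CPT1C, an isoform of neurons, rose from 6.49 ± 0.756 to 46.9 ± 7.94 CPM (2.86, SE 0.12, adjusted p = 1.83e-12). Of 76 listed genes of cytosolic ribosomal proteins, only 33 were among the counted symbols, and the others could not be tested. All 33 tested genes fell, 12 at least 2-fold, with a median of -0.93 that lies close to that of the respiratory chain. With library totals alone these medians were smaller by the 0.48 given above.

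Glycolytic enzymes fell in 10 of 16 and rose in 6. GAPDH went from 7524 ± 445 to 3399 ± 238 CPM, ENO1, enolase, from 8596 ± 514 to 3011 ± 304, and the phosphofructokinase PFKL from 254 ± 32.7 to 76.3 ± 7.42 (-1.15, SE 0.08, adjusted p = 8.56e-10, -1.51, SE 0.09, adjusted p = 9.57e-11 and -1.73, SE 0.09, adjusted p = 1.04e-11). The regulatory kinases PFKFB3 and PFKFB2, which raise or lower the flux through that step, rose (1.03, SE 0.07, adjusted p = 3.43e-10 and 1.26, SE 0.10, adjusted p = 7.56e-09). The order of falls and rises in this list turned with library totals alone, where 4 members were at least 2-fold higher and 2 lower, against 3 and 4.

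Cholesterol genes fell in 20 of 25, 13 at least 2-fold (median -1.03). SQLE, squalene epoxidase, had 241, 283, 270.1, 277 and 273 CPM in FB and 67.2, 55.8, 50.2, 49.4 and 54.5 CPM in TrogGW, with no overlap (-2.28, SE 0.08, adjusted p = 1.24e-13). TM7SF2 and MSMO1, later enzymes of the route, fell by -2.24 and -2.56, and HMGCS1, at its start, fell from 186 ± 21.2 to 65.9 ± 2.57 CPM. These genes had been higher in TGFb, where HMGCS1 was 689 ± 66.5 CPM. The members that rose included targets of the sterol-sensing receptor LXR: ABCA1, the cholesterol exporter, rose from 35.0 ± 4.07 to 136 ± 29.0 CPM (1.96, SE 0.12, adjusted p = 2.40e-10), MYLIP, which degrades the LDL receptor, by 2.00, SE 0.08, adjusted p = 1.31e-12, and NR1H3, LXR-alpha, by 1.57. Fatty acid synthesis did not follow. FASN, fatty acid synthase, was 282, 242, 349, 294 and 356 CPM in FB and 295, 304, 305, 242 and 324 CPM in TrogGW. These overlap and were not called (-0.05, SE 0.10, adjusted p = 0.633, 95% confidence interval -0.26 to 0.16), although TGFb had 1110.5 ± 122. ACLY, ATP citrate lyase, was not called either (600.5 ± 25.7 and 616 ± 54.0 CPM; 0.04, SE 0.06, adjusted p = 0.605). Over the list of 22, 11 fell, with the lowest p for ELOVL1 (-1.37, SE 0.04, adjusted p = 4.22e-14) and ACSS2 (-1.59, SE 0.07, adjusted p = 2.54e-12), and 6 rose, with the lowest p for LPIN2 (1.86, SE 0.07, adjusted p = 1.69e-13) and GPAM (1.38, SE 0.06, adjusted p = 1.05e-12), which act in glyceride synthesis, while with library totals alone 12 rose and 8 fell.

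Genes of oxidative stress moved both ways, and several rose by a large factor. In the list of NRF2, glutathione and thioredoxin genes 13 of 30 rose, 10 at least 2-fold, and 17 fell, whereas with library totals alone 19 rose and 11 fell. GCLC, the rate-limiting enzyme of glutathione synthesis, had 39.4, 42.1, 37.2, 39.9 and 40.8 CPM in FB and 309.8, 373, 423, 343 and 371 CPM in TrogGW. The lowest TrogGW library was 7.36-fold above the highest FB library, and the difference was 3.19, SE 0.08, adjusted p = 2.78e-15. SQSTM1, the autophagy receptor p62, rose from 391, 365, 396, 351 and 387 CPM to 4849.6, 6726, 7831, 7351 and 6193 CPM (4.12, SE 0.12, adjusted p = 2.71e-14). GSTM3, a glutathione transferase, rose from 59.7 ± 4.66 to 1813 ± 489 CPM (4.92, SE 0.16, adjusted p = 9.00e-14), and FTH1, the ferritin heavy chain, from 2051 ± 99.5 to 16434 ± 861 (3.00, SE 0.09, adjusted p = 1.94e-14). TXNRD1, thioredoxin reductase, rose by 1.54, SE 0.06, adjusted p = 9.56e-13 and the superoxide dismutase SOD2 by 3.20, SE 0.08, adjusted p = 6.36e-15. All of GCLC, SQSTM1, GSTM3 and TXNRD1 were higher in TrogGW than in Trog (1.81, 1.74, 1.89 and 1.04), and SOD2 was lower (-0.90). GCLM, the partner subunit of GCLC, was slightly lower (-0.31, SE 0.05, adjusted p = 6.86e-05), but higher with library totals alone (0.17). NFE2L2, which encodes NRF2 itself, was 256 ± 10.1 CPM in FB and 284 ± 25 in TrogGW (0.15, SE 0.06, adjusted p = 0.0292), and this call was lost when FB replicate 2, 3 or 5 or TrogGW replicate 1 was left out. PRDX6 and MGST3, a peroxiredoxin and a microsomal glutathione transferase, fell (-2.47, SE 0.06, adjusted p = 3.22e-15 and -3.90, SE 0.10, adjusted p = 7.80e-15). Gene spans of FTH1 and BEST1, and of SQSTM1 and MGAT4B, overlap in the RefSeq table, and the strand setting of the counting was not given in the sources used here, so reads of such pairs may be mixed. The same holds for HSPA5 with RABEPK, DDIT3 with MARS1, CCNA2 with EXOSC9, CCN1 with ZNHIT6, TGFB1 with TMEM91, MPC2 with DCAF6, PSPH with CCT6A, CXCR4 with THSD7B, TIMP1 with SYN1, ASPN, OMD and ECM2 with CENPP, ANLN with KIAA0895, AXIN2 with CEP112, CS with COQ10A, MDH2 with STYXL1, LOXL4 with R3HCC1L, TGM2 with RPRD1B, NDUFA9 with AKAP3, UQCRC2 with PDZD9, NR1H3 with ACP2, PC with LRFN4 and RCE1, SEMA3B with LSMEM2, YARS1 with S100PBP, and CIDEC with IL17RE.

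**Figure D4:**
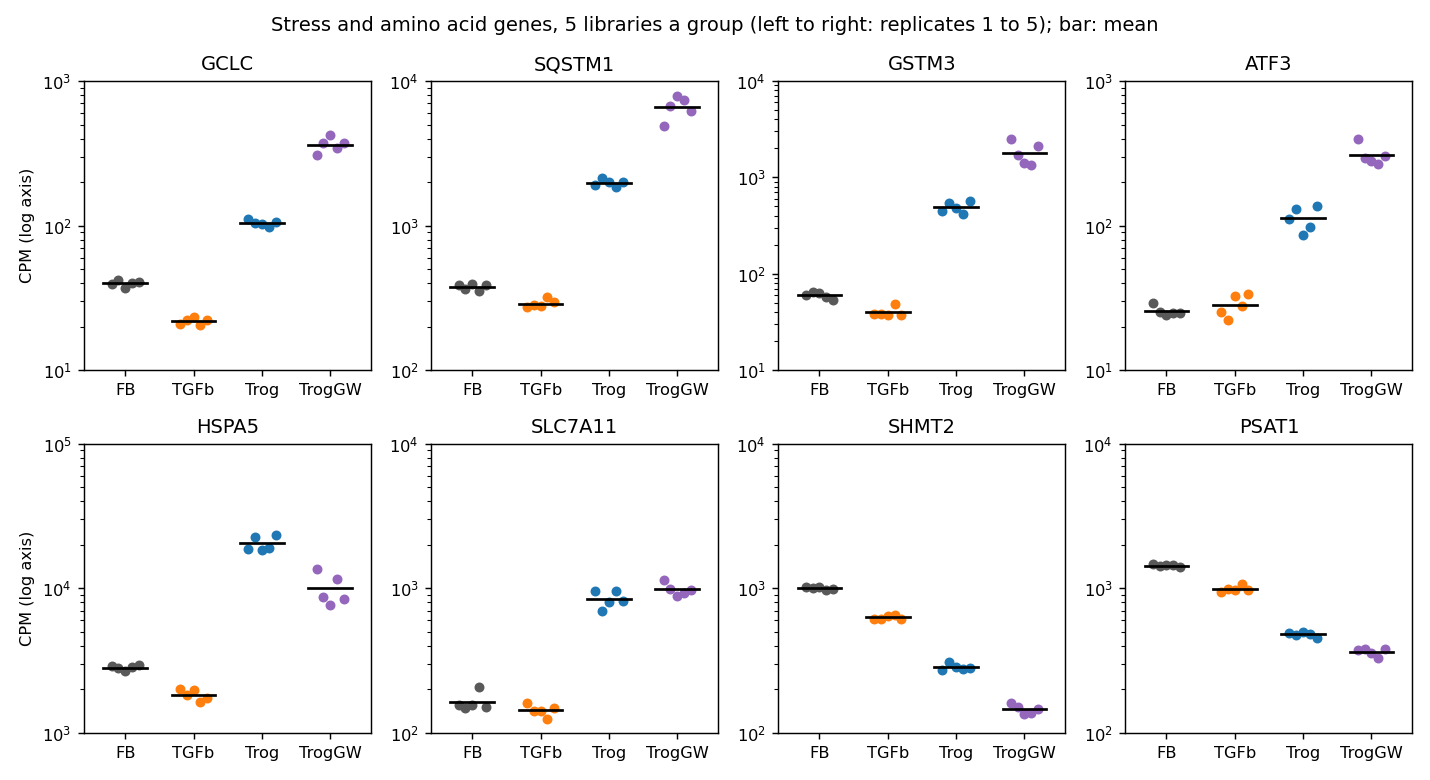
CPM of 8 genes of oxidative stress, amino acid stress and the endoplasmic reticulum in each library (points; log axis) of FB, TGFb, Trog and TrogGW, with the group mean as a bar. GCLC, SQSTM1, GSTM3 and ATF3 are highest in TrogGW, HSPA5 is highest in Trog, and SHMT2 and PSAT1 are lowest in TrogGW.

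Of 21 genes of the transcription factor ATF4 and of serine synthesis, 13 fell and 8 rose. ATF3, a stress-induced repressor, had 29.1, 25.3, 24, 24.9 and 25.1 CPM in FB and 399, 294, 281, 266 and 303 CPM in TrogGW. The nearest libraries were 9.14-fold apart (3.59, SE 0.10, adjusted p = 1.94e-14). DDIT3, the proapoptotic factor CHOP, rose from 39.1 ± 5.57 to 243 ± 13.2 CPM (2.64, SE 0.08, adjusted p = 3.73e-14), and CHAC1, which degrades glutathione, from 57.1 ± 3.23 to 186 ± 24.3 (1.71). Among enzymes of serine, glycine and folate metabolism, SHMT2 fell from 1028, 1006, 1016, 969 and 982 CPM to 162, 151, 135, 136 and 147 CPM (-2.77, SE 0.06, adjusted p = 1.34e-15), PSAT1 from 1435 ± 22.6 to 365 ± 22.6 (-1.98, SE 0.06, adjusted p = 3.37e-14), PSPH by -2.23, SE 0.05, adjusted p = 1.13e-15 and PHGDH by -1.71. ASNS, asparagine synthetase, fell by -1.89, SE 0.06, adjusted p = 3.17e-14, and ATF4 itself fell by -0.66. SLC7A11, the cystine importer, had 157, 148, 155, 209 and 150.4 CPM in FB and 1149.9, 993, 891, 932 and 972 CPM in TrogGW, and its partner chain SLC3A2 had 137, 120.2, 136, 119 and 128 and 642, 755, 842, 886 and 695 CPM. Both were higher in every TrogGW library (2.59, SE 0.10, adjusted p = 4.59e-13 and 2.58, SE 0.09, adjusted p = 1.04e-13). SLC7A5, the leucine transporter that pairs with the same partner, was not called (0.08, SE 0.07, adjusted p = 0.280). The tRNA synthetases YARS1 and CARS1 and the glutamine transporter SLC1A5 fell (-1.06, SE 0.04, adjusted p = 9.93e-13, -1.46 and -1.09). Of the joint list of 24 genes 16 fell and 6 rose.

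Chaperones and sensors of the endoplasmic reticulum rose in 17 of 31 and fell in 11 (median 0.37). HSPA5, the chaperone BiP, had 2885, 2790.2, 2681, 2842 and 2962 CPM in FB and 13621, 8676, 7652, 11511 and 8463 CPM in TrogGW. All TrogGW libraries were higher (1.82, SE 0.14, adjusted p = 2.32e-09), but below Trog, which stood at 20443 ± 2401 (-1.03, SE 0.15, adjusted p = 1.72e-05). EDEM1 and HERPUD1 of the degradation pathway rose (1.51, SE 0.05, adjusted p = 1.42e-13 and 1.88, SE 0.06, adjusted p = 1.14e-13), as did the sensor ERN1 (1.73, SE 0.06, adjusted p = 3.28e-13). CREB3L1, a membrane-bound factor that drives collagen genes, fell from 540.3 ± 32.6 to 63.9 ± 1.20 CPM (-3.08, SE 0.06, adjusted p = 1.44e-16), SEC61B, of the translocon, by -1.34, SE 0.05, adjusted p = 4.11e-13, and XBP1, the factor that ERN1 splices, by -1.68. No member of the list was highest in TrogGW among the 4 groups by its mean.

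Lysosomal genes rose in 22 of 43, 12 at least 2-fold, and fell in 18. ULK1, the kinase that starts autophagy, and ATP6V0B of the proton pump rose (2.49, SE 0.09, adjusted p = 1.31e-13 and 2.01, SE 0.06, adjusted p = 5.21e-14), as did the lysosomal calcium channel MCOLN1 (1.90, SE 0.06, adjusted p = 7.30e-14). The pump subunit ATP6V0A1 rose from 66.5 ± 4.37 to 285 ± 36.3 CPM. ATP6V0D2, an isoform of osteoclasts, had 1 count over the FB libraries, in replicate 2, and 28.5, 24.4, 16.8, 23.5 and 23.0 CPM in TrogGW. The ratio of levels from counts pooled over each group was 1993, with a 95% counting interval of 357 to 78750.0 (adjusted p = 6.87e-14). The protease CTSZ and LAMP1, the major membrane protein of lysosomes, fell (-2.43, SE 0.06, adjusted p = 2.57e-15 and -1.44, SE 0.06, adjusted p = 2.30e-12), and the regulator TFEB was not called (-0.06, SE 0.09, adjusted p = 0.563). Proteasome subunits fell in 24 of 33, but only 2 of them at least 2-fold, and with library totals alone 14 rose and 9 fell. PSME4, a proteasome activator, rose (1.39, SE 0.06, adjusted p = 1.55e-12). ABC transporters fell in 18 of 31, against 13 higher and 8 lower with library totals alone; ABCB1, the multidrug pump, rose from 136 ± 8.67 to 1011 ± 146 CPM (2.89, SE 0.09, adjusted p = 7.53e-14) and overlaps RUNDC3B in the RefSeq table. Of 7 aryl hydrocarbon receptor genes 2 rose and 2 fell, the latter including CYP1B1 (-0.94, SE 0.08, adjusted p = 1.20e-08), and with library totals alone 4 rose and 2 fell.

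Interferon-induced genes rose in 18 of 31 and fell in 10 (median 0.38). RSAD2, the antiviral protein viperin, had 0, 0, 0.118, 0 and 0.0625 CPM in FB and 18.5, 24.1, 25.7, 31.5 and 19.4 CPM in TrogGW. The gene was near 0 in all FB libraries (9.18, SE 0.34, adjusted p = 3.49e-13, and 10.17 without FB replicate 3). HERC5 and TRIM25, ubiquitin-like and ubiquitin ligases of the antiviral response, rose (1.72, SE 0.05, adjusted p = 4.21e-14 and 2.02, SE 0.09, adjusted p = 5.60e-12), and the factor IRF7 rose from 0.204 ± 0.0716 to 7.94 ± 2.67 CPM (5.20). DDX60, an antiviral helicase, fell (-3.48, SE 0.13, adjusted p = 3.36e-13), against the direction of most of the list.

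Among 34 cytokine and chemokine genes 20 rose and 10 fell. PTGS2, the inducible cyclooxygenase, rose from 6.19, 4.36, 4.37, 5.27 and 5.69 CPM in FB to 149, 106, 119.8, 112 and 161 CPM in TrogGW, without overlap (4.65, SE 0.14, adjusted p = 2.59e-14). It was 132 ± 18.4 CPM in TGFb. PTGS1, the constitutive form, fell from 856 ± 22.6 to 73.6 ± 28.5 CPM (-3.54). CXCR4, a chemokine receptor, rose from 0.133 ± 0.0902 to 9.63 ± 1.42 CPM (6.16, SE 0.25, adjusted p = 7.94e-13), and IL11, a fibrosis-linked cytokine, by 2.85. IL33, an alarmin of the nucleus, fell from 64.2, 72.3, 62.5, 75.7 and 61.8 CPM to 0.262, 0.211, 0.181, 0.472 and 0.193 CPM (-7.93, SE 0.14, adjusted p = 1.44e-16). IL34 and TNFRSF11B, osteoprotegerin, fell with it (-4.87, SE 0.10, adjusted p = 6.16e-16 and -4.03, SE 0.08, adjusted p = 6.16e-16). IL6 rose within low levels, from 0.0853 ± 0.0934 to 1.02 ± 0.50 CPM (3.35, SE 0.57, adjusted p = 4.04e-05).

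Growth factors changed in opposite directions. IGF1 had 1.16, 1.72, 1.18, 1.27 and 1.31 CPM in FB and no count in TrogGW, which, from counts pooled over the 5 libraries of each group, is at least 51.0-fold lower against the floor of 3 counts in TrogGW (adjusted p = 3.59e-08). IGF2, the fetal relative, rose from 1.02, 0.516, 1.36, 1.32 and 0.625 CPM in FB to 40.6, 76.6, 93.8, 81.1 and 68.3 CPM in TrogGW (6.19, SE 0.27, adjusted p = 1.91e-12). The binding proteins IGFBP2 and IGFBP4 fell from 2725 ± 94.4 to 185 ± 156 and from 338 ± 22.3 to 100.2 ± 13.8 CPM. FGFR2, a fibroblast growth factor receptor, rose from 8.14 ± 1.12 to 99.5 ± 19.0 CPM (3.61, SE 0.14, adjusted p = 4.24e-13), and KDR, a VEGF receptor, by 2.31, SE 0.09, adjusted p = 8.09e-13, while its relative FLT1 fell (-1.95, SE 0.06, adjusted p = 3.44e-14). MET, the receptor of hepatocyte growth factor, fell (-1.97, SE 0.06, adjusted p = 4.95e-14), and PDGFRB, the receptor typical of mesenchymal cells, was 200.2 ± 7.52 and 201 ± 30.5 CPM and was not called (0.00, SE 0.08, adjusted p = 0.968, 95% confidence interval -0.17 to 0.18). Over the list of 46, 21 rose and 18 fell.

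Immediate-early and feedback genes rose in 17 of 31, 13 at least 2-fold, and fell in 12. NR4A2, an orphan nuclear receptor, rose from 5.24, 4.42, 3.90, 5.37 and 5.38 CPM in FB to 44.0, 35.7, 37.6, 42.1 and 38.3 CPM in TrogGW (3.02, SE 0.10, adjusted p = 5.23e-14), and FOSB from 1.37 ± 0.413 to 24 ± 8.41 (4.09, SE 0.25, adjusted p = 1.33e-10). DUSP6 and SPRED1, which damp the ERK kinases, rose (3.66, SE 0.14, adjusted p = 6.94e-13 and 1.60, SE 0.06, adjusted p = 3.81e-13), and SPRY1, of the same function, fell (-2.44, SE 0.09, adjusted p = 5.61e-13). FOS was 90.8 ± 22.5 and 104 ± 43.4 CPM and was not called (0.20, SE 0.21, adjusted p = 0.383), JUN fell (-0.65) and MYC fell from 218 ± 16.9 to 81.2 ± 17.1 CPM (-1.42). In the list of axon guidance and neuronal genes 21 of 39 rose and 15 fell. NEFM, a neurofilament chain, had 6.46, 5.11, 5.14, 5.52 and 5.06 CPM in FB and 286, 393, 361, 354 and 554 CPM in TrogGW. In Trog it was 0.349 ± 0.155 CPM, so that the level of TrogGW stood above that of all 3 reference groups (6.16, SE 0.17, adjusted p = 1.37e-14 against FB and 10.09, SE 0.25, adjusted p = 4.46e-13 against Trog). EFNB2, an ephrin, rose from 5.81 ± 0.333 to 75 ± 12.7 CPM (3.69, SE 0.12, adjusted p = 7.99e-14), and the repulsive ligands SEMA3C and SEMA3B fell (-2.26, SE 0.07, adjusted p = 5.66e-14 and -2.42, SE 0.08, adjusted p = 9.63e-14).

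The largest rises among genes with at least 10 CPM in TrogGW were mostly of genes near 0 in the fibroblasts. ARC, a synaptic immediate-early gene, had 1 count over the FB libraries, in replicate 3, and 49.1, 62.9, 60.4, 52.1 and 104 CPM in TrogGW. The ratio of levels from counts pooled over each group was 5537, with a 95% counting interval of 994 to 218700.0. GJB2, the gap junction protein connexin 26, had 0, 0.0574, 0.118, 0.0976 and 0.0625 CPM in FB and 97.2, 139.9, 133, 130.3 and 119 CPM in TrogGW (10.66, SE 0.20, adjusted p = 2.10e-16). TEX14, a protein of germ cell bridges, was at 5.10, 7.40, 5.91, 6.40 and 5.13 CPM in FB and at 1315, 2666, 3110.1, 3348 and 2048 CPM in TrogGW. The TrogGW libraries spread from the lowest in replicate 1 to the highest in replicate 4, all far above FB (8.70, SE 0.27, adjusted p = 3.92e-14), and Trog had 15.1 ± 3.04 CPM (7.38, SE 0.27, adjusted p = 1.55e-11 for TrogGW minus Trog). MSX1, a transcription factor, rose from 0.0376 ± 0.0345 to 16.8 ± 4.90 CPM (8.66, SE 0.38, adjusted p = 2.77e-12). ATP1B2, a sodium pump subunit of glia, rose from 0.951 ± 0.219 to 215 ± 66.6 CPM (7.83, SE 0.29, adjusted p = 3.28e-13). GPR137C, SYNDIG1L and PCDH17, with 2 counts, 1 count and 1 count over the FB libraries (the latter both in replicate 5), reached 37.2 ± 3.6, 10.7 ± 2.28 and 10.0 ± 3.22 CPM. Their ratios to FB were 1587 (95% counting interval 439 to 13110.0), 923 (165 to 36490.0) and 848 (152 to 33520.0). Counting intervals cover counting error only.

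The largest falls among genes with at least 10 CPM in FB, besides ANKRD1, COL3A1, IL33, ACTA2, COL1A2, ASPN, KIF23 and ADAMTS15, were of CASP14, a caspase of cornifying skin, from 28.7 ± 1.59 to 0.0697 ± 0.0505 CPM (-8.56, SE 0.18, adjusted p = 6.53e-16), of DIAPH3, a formin that extends actin filaments, from 19.4 ± 3.70 to 0.109 ± 0.0960 (-7.35, SE 0.26, adjusted p = 2.21e-13, and -8.05 without TrogGW replicate 4), of SHCBP1, a protein of the midbody, from 24.9 ± 4.40 to 0.175 ± 0.0765 (-7.11, SE 0.22, adjusted p = 3.44e-14), and of CDH10, a cadherin, from 16.1 ± 1.56 to 0.141 ± 0.122 (-6.79, SE 0.22, adjusted p = 7.65e-14, and -7.43 without TrogGW replicate 1).

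The position of TrogGW among the other groups differed by list. Collagen chains had their lowest mean of the 4 groups in TrogGW for 16 of 18 genes (88.9%), collagen enzymes for 20 of 25 (80%) and cholesterol genes for 19 of 25 (76%), against 28.3% of all tested genes. The highest mean was in TrogGW for 15 of 31 interferon-induced genes (48.4%) and 14 of 31 immediate-early genes (45.2%), against 30.8% of all. These are counts of means, without a test. A mean between those of FB and TGFb was found for 16% of all tested genes, and for none of the tested genes of the SRF and YAP, collagen chain and collagen enzyme lists. By direct tests with edgeR, TrogGW differed from TGFb in 8993 of 10443 genes (86.1%) and from Trog in 7312 of 10423 (70.2%), at least 2-fold in 3786 (36.3%) and 1512 (14.5%). These fits share the TrogGW libraries with the comparison against FB.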

How the data were processed

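RNA from cultured cat corneal cells was sequenced as stranded poly(A) libraries, per the labels' protocols. The authors deposited 1 table of raw read counts per gene symbol for each library. Per the submitters' processing notes, Salmon 1.5.2, featureCounts, Subread 2.0.1, STAR 2.7.9a and fastp 0.23.1 were used, in roles not given, and the genome build, annotation and strand setting are not given in the sources used here. Of 13949 symbols, 13797 were found in the RefSeq cat table (F.catus_Fca126_mat1.0), which was used for names and overlapping genes only, and no coordinates or sequences are printed.

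The counts were tested with edgeR 4.0.16 (glmQLFit, glmQLFTest) in R 4.3.3 over the 10 libraries compared, with TMM scaling, filterByExpr (minimum count 10, minimum total 15) and Benjamini-Hochberg adjustment over all tested genes, called at an adjusted p under 0.05. SE are |log2 fold change| divided by the square root of F, and 95% intervals use the t distribution. TrogGW against TGFb and TrogGW against Trog were fitted alike. CPM of FB and TrogGW use the TMM factors of the fit of these 10 libraries, and the other libraries were put on that scale through the same reference library. A group without a count was given a floor of 3 counts over its 5 libraries. A gene with 1 to 3 counts in FB has an exact counting interval. On simulated counts with 10347 genes, the test called 97 of the 99 genes with a 2-fold change. It also called 86 of the 98 with a 1.5-fold change, and 14 of 10150 without one. Most genes in those counts were thus unchanged, whereas 8950 of 10425 genes were called between TrogGW and FB. Whether the test does as well at that share of called genes, or at the spread between the TrogGW libraries, was not tested.

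Members of the comparison and the gene lists were chosen with earlier results of these data known. Of 1388 listed genes 1152 are in the tables. Named genes are ACTA2, MPC1, MPC2, PPARG, FABP4, PDK4 and ANGPTL4, the 12 largest rises and 12 largest falls among called genes whose higher group had a mean of at least 10 CPM and whose groups did not overlap, and of each list the 3 lowest p in its main direction, the 2 lowest in the other and the first 4 members as written. Some genes that this rule names are not reported here. Further genes in the text were picked as members of known role after their values were seen. Alternatives were DESeq2 1.42.0 size factors and its Wald test, library totals alone, upper quartile scaling, a minimum count of 50, no filter, limma 3.58.1 voom, fits of all 25 libraries or 24 without UK replicate 5, the replicate number as a block, and leaving out each library in turn. Replicate libraries differed beyond sampling noise in every pair, so none was a second reading of another. That cannot show whether they came from separate cultures or cats. Each was counted as 1 sample by its label.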

Additional observations from a re-analysis of the deposited data

Results flagged for a closer look

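Each group of 5 libraries was checked for a library whose gap to the nearest of the others, divided by the range of the group, was above 0.71, the 95% critical value of Dixon's test. Of 588 such checks (each gene named, and the share of a library in its 10 top genes, in FB and in TrogGW) 51 passed it, 31 in TrogGW and 20 in FB, where chance alone gives about 1 in 20. The values below are CPM, and no cause of them was tested.

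TrogGW replicate 5 was highest of its group for ADIPOQ at 0.0482, ARC at 104, FOS at 180.2, FOSB at 38.9, HSPB1 at 228, ID1 at 19.6, ID2 at 110.5, ID3 at 77.1, MSX1 at 25.4 and PCDH17 at 15.7, which include immediate-early and BMP target genes. TrogGW replicate 1 was highest for ACTA2 at 33.6, ACTC1 at 23.4, ATF3 at 399, COL1A2 at 942, ITGAV at 560.0, OMD at 0.262 and VCAN at 340.3, most of them genes of the contractile apparatus and matrix, and its 10 top genes took 9.35% of its counts, the highest share of the group. It was lowest for ADAMTS1 at 180.2, NDUFA9 at 40.9 and RRM2 at 3.72. TrogGW replicate 3 stood highest for MCM5 at 6.12, NDUFA6 at 21.0, SLC7A5 at 227 and SPP1 at 8904. TrogGW replicate 4 stood highest for DIAPH3 at 0.276, IL33 at 0.472, MCM6 at 36.4 and SYNDIG1L at 14.6, and lowest for LOXL4 at 135 and TIMP1 at 2086.

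Among the untreated fibroblasts, FB replicate 1 was highest for ATF3 at 29.1. FB replicate 2 was highest for ATP6V0D2 at 0.0574 and IGF1 at 1.72 and lowest for PKP1 at 5.33 and SLC7A5 at 156, with 14.3% of its counts in its 10 top genes, the lowest share of the group. FB replicate 3 was highest for ARC at 0.0591 and lowest for BMPR1B at 0.591 and P4HA2 at 749. FB replicate 4 was highest for ITGAV at 238 and SLC7A11 at 209 and lowest for GLUL at 71.4 and PDK4 at 0. FB replicate 5 was highest for B3GNT7 at 0.188, CCN2 at 6311, PCDH17 at 0.0625 and SYNDIG1L at 0.0625 and lowest for ATP6V0B at 41.1, DCN at 389 and UQCRC2 at 189. The values of ARC, ATP6V0D2, PCDH17 and SYNDIG1L in these FB libraries are each a single count. For these genes and B3GNT7 in FB, and for ADIPOQ and OMD in TrogGW, no other library of the group had a count. Their flags were thus fixed in advance and do not bear on the comparison with chance.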

How the results depend on the processing

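Counts of called genes stayed within 1.5 times the reported value under all alternatives but 2. TrogGW against FB gave 8950 genes as reported, from 7461 (all 25 libraries in the fit) to 9822 (no filter), and 8880 to 9095 with 1 library left out. The count at 2-fold or more was 3723, with 3073 to 4632 under the other settings and 3720 to 3904 with 1 library left out. More members fell than rose in 22 of 35 lists, 18 with library totals alone to 23, and 22 to 23 with 1 library left out. TrogGW against TGFb gave 8893 to 9116 and TrogGW against Trog 7010 to 7489 with 1 library left out, beside 8993 and 7312. The first exception was TrogGW against Trog with all 25 libraries, 4620 genes, against 7736 without UK replicate 5 (UK: cells given the carrier inhibitor UK-5099). The other was the count at 2-fold or more against TGFb, 5710 with library totals alone beside 3786.

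Of 271 named genes fitted, 18 changed their call or direction under at least 1 alternative. With library totals alone the sign turned for BUB3 (0.37), ESPL1 (0.37), FASN (0.42), GCLM (0.17), HSPD1 (0.072), MCM7 (0.33), MMP2 (0.26) and TFEB (0.42), 7 genes became called and 2 were lost, beside a shift of 0.48 in the median of all genes. With all 25 libraries NFE2L2, HSPB1 and HSPD1 were not called. MMP2 was called with limma voom, with 24 libraries and with the replicate block. COL1A1 against Trog was called with no filter (-0.48), limma voom (-0.51) and 24 libraries (-0.48). List directions turned with library totals alone where stated above. Matrix proteases tied at 11 and 11 with limma voom and with the block, TGF-beta genes stood at 13 higher and 15 lower and Wnt genes at 11 and 11 with all 25 libraries, and Wnt genes at 9 and 9 and matrix proteases at 8 and 8 with the stricter filter. Direction in the aryl hydrocarbon receptor list, of 7 genes, differed between settings. Causes were not tested.

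Replicate numbers are shared by the groups, but deviations of same-numbered FB and TrogGW libraries from their group means correlated at -0.037, 0.141, 0.178, 0.079 and 0.005, so the numbers were not taken as pairs. With the replicate number as a block, 8979 genes were called against FB (3733 at 2-fold or more, 22 lists with more falls), 8957 against TGFb and 7182 against Trog, and MMP2 alone of the named genes changed its call against FB. A gene at 0 in a group could have had up to 0.0351 CPM in FB and 0.0261 CPM in TrogGW (3 counts over 5 libraries).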

Other observations

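The genes in this section were chosen after their values were seen and lie outside the lists above. SPP1, the secreted matrix phosphoprotein osteopontin, had 256, 277, 240.0, 250.5 and 233 CPM in the FB libraries and 6854, 7247, 8904, 6882 and 6959 CPM in the TrogGW libraries. The lowest TrogGW library was far above the highest of FB (4.87, SE 0.10, adjusted p = 7.18e-16, edgeR), and the means of TGFb and Trog were 4394 ± 351 and 2579.6 ± 386 CPM. PEG10, a protein of retrotransposon origin known from the placenta, had 1.43, 1.84, 1.24, 1.56 and 2.00 CPM in FB and 129, 218, 271, 216 and 194 in TrogGW (6.99, SE 0.21, adjusted p = 3.57e-14). It was below 1 CPM in Trog (0.488 ± 0.0984), and the direct test of TrogGW against Trog gave 8.72, SE 0.24, adjusted p = 1.31e-12. PTGR1, a prostaglandin reductase, rose from 67.1 ± 5.89 to 1559.7 ± 287 CPM, and GLUL, glutamine synthetase, from 75.3 ± 2.27 to 1113 ± 220.2 CPM (4.54 and 3.89). LMNB1, lamin B1 of the nuclear envelope, fell from 222, 248, 229, 238 and 244 CPM to 11.5, 10.5, 10.1, 10.1 and 11.6 CPM (-4.46, SE 0.06, adjusted p = 1.15e-17), with 8.58 ± 0.733 CPM in Trog. KIF1A, a motor of axonal transport, rose from 0.983 ± 0.231 to 148 ± 13.0 CPM (7.24, SE 0.11, adjusted p = 2.61e-17), with 172 ± 11.6 CPM in Trog.

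Chaperones of the cytosol and of mitochondria were among these genes. HSPA8, the constitutive HSP70, rose from 2334 ± 36.1 to 4416 ± 518 CPM (0.92, SE 0.08, adjusted p = 2.26e-08), and its partners DNAJB1 and HSPH1 rose by 1.64 and 1.34. HSPB1, a small heat shock protein, and the mitochondrial chaperonins HSPD1 and HSPE1 fell (-0.55, -0.40 and -0.97), but with library totals alone HSPB1 was not called (-0.07) and HSPD1 was on the other side of 0 (0.07). SIDT2, which encodes a lysosomal membrane protein, had 8663 ± 709 CPM in FB, 13353 ± 488 in TGFb and 259 ± 139.8 in TrogGW (-5.06, SE 0.28, adjusted p = 5.08e-11). In the RefSeq table its neighbour is TAGLN, a smooth muscle actin-binding gene that was not among the counted symbols. Whether reads of TAGLN entered the counts of SIDT2 was not tested.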
